A study of Mus musculus with 24 samples.

Results

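The cytokine response of MIN6 cells that carry an inhibitor of miR-146a-5p was followed in 8 of the 24 RNA-seq libraries of the study, namely the 4 untreated ZIP libraries and the 4 cytokine-treated ZIP libraries (ZIP+Cy). The members were chosen by their labels alone, as all libraries of the ZIP line. MIN6 is an insulinoma line that serves as a model of mouse β cells, and ZIP cells stably carried a lentiviral vector (miRZip-146a, with a copGFP reporter) that expresses an antisense of miR-146a-5p. Cytokines were given for 24 h as a mix of IFNγ (100.0 ng/ml), TNFα (10 ng/ml) and IL-1β (5 ng/ml), and untreated ZIP cells received none of these. For comparison, Scr cells carried a scrambled sequence in the same vector backbone and OE cells a different lentiviral vector that overexpresses miR-146a-5p, each again with 4 untreated and 4 treated libraries. The study describes each line as monoclonal, so the effect of a vector and of a clone cannot be told apart, and nothing in the sources used here says whether replicates were separate cultures. P values therefore measure the spread between these libraries, which may be technical. The microRNA itself was not measured in these libraries. In separate qRT-PCR assays, the study reported an unchanged level in untreated ZIP against Scr cells and a higher one in OE cells. With cytokines it reported a rise in each line, far larger in Scr than in ZIP or OE.

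IL-1β and TNFα signal through adaptor complexes (MyD88, IRAK and TRAF proteins) to the transcription factor NF-κB, while IFNγ signals through the kinases JAK1 and JAK2 to transcription factors that induce IRF1 and a wide set of interferon-stimulated genes. In β cells the mix of all 3 cytokines is a common model of islet inflammation in type 1 diabetes, known for nitric oxide production through Nos2, chemokine release and antigen presentation. miR-146a-5p is itself induced by NF-κB and represses the IRAK1 and TRAF6 messages, and is known as a brake on this pathway. The microRNA that the ZIP vector targets is encoded on chromosome 11 of GRCm38.p6 (chr11:43374435-43374456, minus strand), and its relative miR-146b-5p on chromosome 19 has the same seed. Both mature sequences from RefSeq are shown 5′ to 3′, with the seed (bases 2 to 8) in capitals, because the vector was designed against the first of them.
miR-146a-5p: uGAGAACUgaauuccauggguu
miR-146b-5p: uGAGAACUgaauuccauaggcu
The 22 bases of the relatives differ at 2 positions, the first of them position 18, so a seed match alone does not tell them apart.

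Expression was measured as estimated read counts per gene. Between 28032255 and 33369451 reads per library were assigned to genes in ZIP and between 26657792 and 31820580 in ZIP+Cy. Levels are given in CPM, read counts scaled to a common library size with TMM factors, as single values in replicate order or as mean ± SD (n = 4). A gene was called higher or lower in ZIP+Cy when it changed at least 1.5-fold with a Benjamini-Hochberg adjusted p value under 0.05 over all 17696 genes in edgeR's quasi-likelihood test. The 8 β cell markers summed to 24116 to 26257 CPM in ZIP and 21034 to 23586 CPM in ZIP+Cy. The sums came mostly from Ins2 and Iapp, and 1 of the 8 markers was under 1 CPM. Of markers for other cells, 3 of 4 duct markers were at 0 in all 8 libraries, the 2 B cell markers analysed summed to at most 0.248 CPM in ZIP and 0.767 CPM in ZIP+Cy, and the 7 macrophage markers analysed summed to 15.6 to 20.3 CPM in ZIP and 11.9 to 13.7 CPM in ZIP+Cy. The 5 fibroblast markers summed to 3.35 to 44.4 CPM in ZIP and 3.26 to 5.41 CPM in ZIP+Cy, and of them Col1a1, a collagen chain, was at 12.6, 2.41, 0.062 and 0.0672 CPM in ZIP replicates 1 to 4 and 0.279, 0.311, 1.69 and 0.355 CPM in ZIP+Cy. Dcn, a matrix proteoglycan, was at 11, 0.109, 0.155 and 0.0336 CPM in ZIP replicates 1 to 4 and 0.594, 0.173, 0.0767 and 0.0967 CPM in ZIP+Cy, so ZIP replicate 1 stood out for both. Col1a2 was called lower without ZIP replicate 4 (−3.07) or ZIP replicate 3 (−3.07) and in DESeq2 (−2.73), and Col1a2 (−2.23) and Dcn (−2.89) with replicate numbers as a block. Col1a2 was also called lower in the fit of both ZIP groups alone (−2.70). Both genes rested on ZIP replicate 1, since without it the log2 fold change of Col1a2 was −1.35 and not called, and that of Dcn turned to 1.20. The other marker lists were low as well, apart from α cell markers, whose Ttr is given with the β cell genes. Of the δ cell markers Rbp4 fell from a mean of 3.26 to 1.71 CPM (log2 fold change −0.94), which was lost without ZIP replicate 3 (−0.80) or ZIP+Cy replicate 1 (−0.82), and of the endothelial markers Pecam1 rose from 0.162 to 0.97 CPM. In bulk samples, fewer cells of a type and less RNA per cell cannot be told apart.

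One untreated library, ZIP replicate 4, held low levels of transcripts that the cytokines induce. Over 125 genes that rose at least 8-fold in Scr+Cy to at least 10 CPM, the median level as a percent of the treated mean of the same line was 1.08%, 1.08% and 1.18% in ZIP replicates 1 to 3 and 4.19% in ZIP replicate 4. In the untreated Scr libraries it lay between 1.13% and 2.14%, and in the OE libraries between 0.497% and 0.701%. ZIP replicate 4 was the highest of the 4 ZIP libraries for 113 of the 125 genes, with a median ratio of 3.18 to the mean of the other 3. ZIP replicate 1 was the lowest for 73 of the 125 genes. Gbp2, for example, was at 0.0034%, 0.24%, 0.38% and 3.53% of its treated mean in ZIP replicates 1 to 4. For such genes, fold changes without ZIP replicate 4 still rest on low levels in ZIP replicates 2 and 3. Results for many strongly induced genes are therefore given with and without ZIP replicate 4, and for others with all libraries only.

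**Figure D1:**
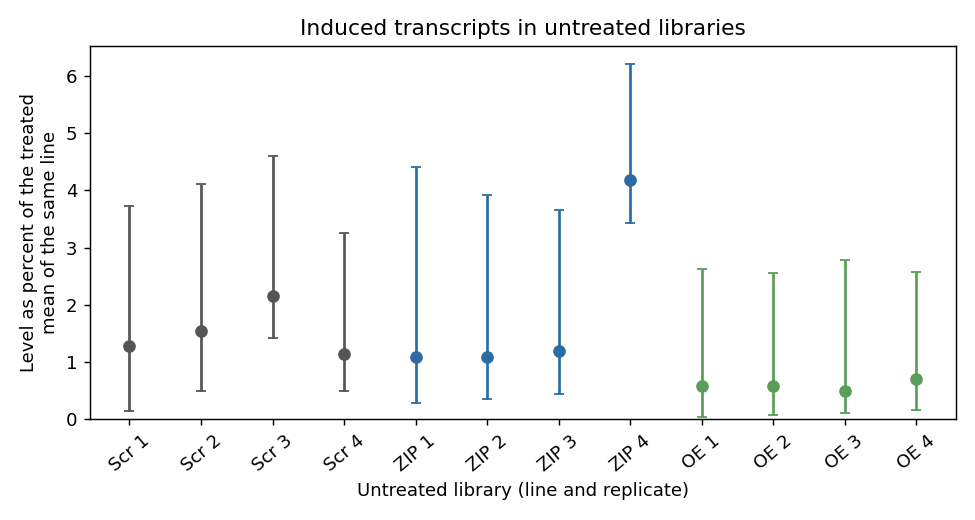
Level of 125 cytokine-induced genes in each untreated library, as percent of the treated mean of the same line (points are medians over genes, bars the interquartile range). ZIP replicate 4 lies at 4.19% and the other 3 ZIP libraries between 1.08% and 1.18%.

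Cytokines changed 1717 genes in ZIP cells. Of the 17696 genes tested, 1083 were called higher (6.12%) and 634 lower (3.58%), while the median log2 fold change of all genes was −0.0066. The rises were the larger changes, since 353 genes rose at least 8-fold and 168 of them at least 32-fold, whereas 229 of the 634 lower genes fell at least 2-fold. Without ZIP replicate 4, 1068 genes were called higher and 670 lower, and 1003 of the higher and 562 of the lower genes were called in both fits. Among the gene lists, all 18 guanylate-binding and immunity-related GTPases, 26 of 28 antiviral genes and 16 of 20 nucleic acid sensors were called higher, as were 9 of 14 chemokines and 7 of 16 complement genes. All genes of these groups that are named below as higher were above every untreated library in each treated one. Over all genes tested, 26.2% had no overlap between ZIP and ZIP+Cy, in either direction. The plot of levels by library shows 11 of the responding genes.

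**Figure D2:**
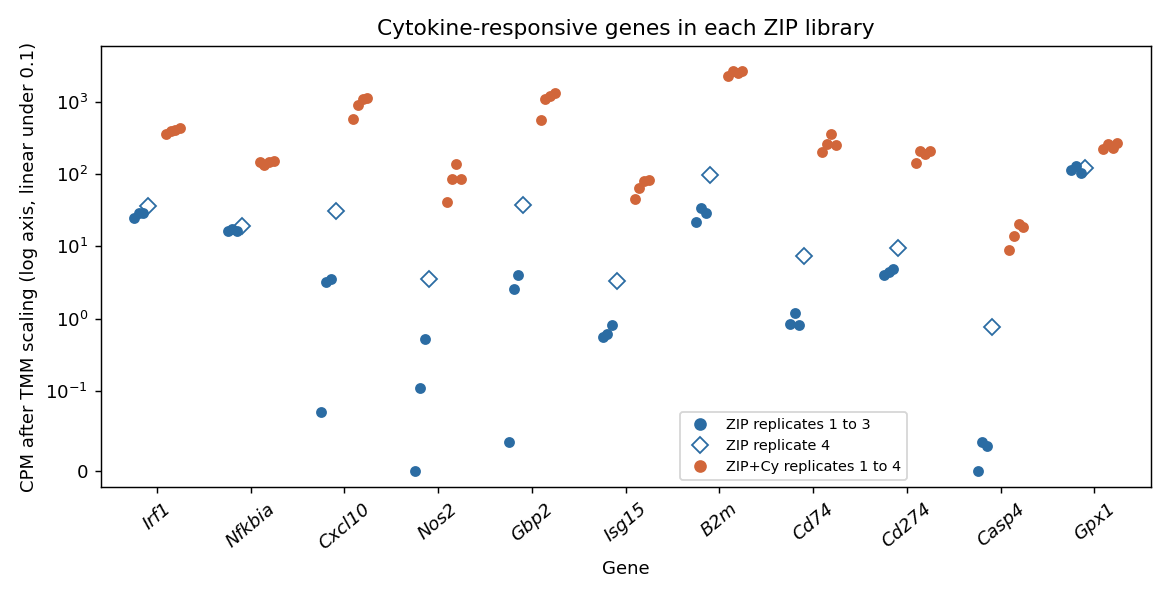
CPM after TMM scaling of 11 genes in each ZIP library (log axis, linear under 0.1), with ZIP replicate 4 as open diamonds. For each gene the 4 treated libraries lie above the 4 untreated ones, and ZIP replicate 4 is the highest untreated library for all but Gpx1.

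Among the receptors of the 3 cytokines, one chain of the IFNγ receptor rose, as did several kinases and adaptors that act after the receptors. Il1r1, the signalling receptor of IL-1, was at 760.5, 717, 629.9 and 805 CPM in ZIP replicates 1 to 4 and 955, 909, 741 and 932 CPM in ZIP+Cy (log2 fold change 0.28 ± 0.08 (SE), adjusted p = 0.0108), and this change lay under the fold limit. Its libraries overlapped between the groups. Ifngr1, the ligand-binding chain of the IFNγ receptor, had a log2 fold change of 0.15 ± 0.10 (SE, adjusted p = 0.298). Tnfrsf1a, the main TNFα receptor, had one of 0.58 ± 0.077 (SE, adjusted p = 2.37e-06), just under the fold limit, which it passed without ZIP replicate 1 (0.59), ZIP replicate 2 (0.60), ZIP+Cy replicate 1 (0.64) or ZIP+Cy replicate 3 (0.61) and in the fit of both ZIP groups alone (0.59). Ifngr2, the second chain of that receptor, rose from 20.3, 18.9, 17.6 and 18.1 CPM to 53.5, 51, 63.7 and 49.2 CPM (log2 fold change 1.54 ± 0.11 (SE), adjusted p = 1.48e-10). All 4 treated libraries were well above the untreated ones. The kinase Jak2 rose from a mean of 42.3 to 86 CPM (log2 fold change 1.02 ± 0.09 (SE), adjusted p = 3.6e-09) and the IL-1 receptor adaptor Myd88 from 6.29 to 15.2 CPM (log2 fold change 1.28 ± 0.097 (SE), adjusted p = 2.43e-10). Of 18 receptor, JAK and adaptor genes, 9 rose and none fell, with a median log2 fold change of 0.73.

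The IRAK and TRAF genes, which include the best known targets of miR-146a-5p, mostly moved little. Irak1, the kinase that the microRNA represses, was at 205, 208, 186 and 215 CPM in ZIP replicates 1 to 4 and 171, 177, 152 and 184 CPM in ZIP+Cy, with a log2 fold change of −0.25 ± 0.063 (SE) and an adjusted p of 0.00427. The 4 treated values were all below the 4 untreated ones, by less than the fold limit. Traf6, the ubiquitin ligase that acts next to IRAK1, was at 72.3, 77.4, 83.6 and 69.6 CPM in ZIP replicates 1 to 4 and 83.7, 82.6, 85.4 and 74.9 CPM in ZIP+Cy, with a log2 fold change of 0.11 ± 0.054 (SE) and an adjusted p of 0.157. Here the groups overlapped. Of 15 listed genes of this group, 2 rose (1 without ZIP replicate 4) and none fell, where 6.12% of all genes were called higher. The median of the list was 0.063. Traf3, a TRAF protein that restrains the noncanonical NF-κB pathway, rose from 63.8, 65.5, 59.9 and 67.7 CPM to 113, 115, 101 and 103 CPM (log2 fold change 0.75 ± 0.06 (SE), adjusted p = 6.25e-10). The rise of Irak4 at 1.62 to 2.67 CPM (log2 fold change 0.73 ± 0.24 (SE), adjusted p = 0.0249) was lost without ZIP replicate 4 (log2 fold change 0.53, adjusted p = 0.0906), as it was without ZIP replicate 2 (0.70), ZIP replicate 3 (0.71), ZIP+Cy replicate 2 (0.68) or ZIP+Cy replicate 4 (0.71) and in the fit of both ZIP groups alone (0.73).

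NF-κB feedback genes rose together. Nfkbia, which encodes the inhibitor IκBα, was at 16.3, 17.4, 16.6 and 19.3 CPM in ZIP replicates 1 to 4 and 146, 136, 147 and 152 CPM in ZIP+Cy (log2 fold change 3.06 ± 0.11 (SE), adjusted p = 3.01e-16). The precursor subunit Nfkb2 rose from 9.92, 10.8, 10.5 and 12.5 CPM to 107, 109, 89.9 and 118 CPM (log2 fold change 3.27 ± 0.11 (SE), adjusted p = 1.21e-16), and its partner Relb from a mean of 4.58 to 35.6 CPM. Tnfaip3, which encodes the ubiquitin-editing inhibitor A20, rose from 6.78 to 34.8 CPM with a log2 fold change of 2.35 ± 0.30 (SE). Rela, which encodes the p65 subunit, was at 36, 33.3, 37.8 and 31.8 CPM in ZIP replicates 1 to 4 and 43.9, 45.4, 46.5 and 49.1 CPM in ZIP+Cy, a log2 fold change of 0.41 ± 0.079 (SE, adjusted p = 0.000327) under the fold limit. Of 16 NF-κB subunits and inhibitors, 11 were called higher and none lower, and the median was 1.62 with all libraries and 1.66 without ZIP replicate 4.

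Transcription factors of the interferon branch rose strongly. Irf1, a factor that activates further interferon-stimulated genes, rose from 25, 29.2, 29.1 and 36.1 CPM to 359, 394, 417 and 433 CPM (log2 fold change 3.75 ± 0.10 (SE), adjusted p = 3.07e-18). ZIP replicate 4 was the highest untreated library for Irf1, but far below the treated ones. Irf7, which amplifies interferon responses, was at 1.98, 2.44, 2.76 and 7.59 CPM in ZIP replicates 1 to 4 and 126, 173, 193 and 181 CPM in ZIP+Cy, with a log2 fold change of 5.50 ± 0.29 (SE) that became 6.13 without ZIP replicate 4. Irf9, which joins STAT2 in the ISGF3 complex, rose from 6.94 to 101 CPM and Stat2 itself from 28.6 to 249 CPM. Socs1, an inhibitor of JAK kinases, rose from 0.732, 1.09, 0.589 and 1.31 CPM to 7.68, 13, 11.9 and 16.4 CPM (log2 fold change 3.72 ± 0.26 (SE), adjusted p = 6.66e-11), whereas Socs3, of the same family, was at 19.5, 18.9, 16.9 and 21.2 CPM in ZIP replicates 1 to 4 and 17.8, 20.7, 14.4 and 22.5 CPM in ZIP+Cy with a log2 fold change of −0.019 ± 0.12 (SE) and an adjusted p of 0.942. Of the 22 genes analysed of the STAT, IRF and SOCS families, 11 rose and none fell.

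Promoter sequence was compared with the response by counting 3 short motifs, in either orientation, in windows from 250 bases before to 50 after each RefSeq start (GRCm38.p6). The motifs were GAAANNGAA for the interferon-stimulated response element (ISRE) bound by ISGF3 and IRF proteins, TTCNNNGAA for the γ-activated site (GAS) bound by STAT dimers and GGGNNNTTC for the κB site. Windows were matched by symbol for 13884 of the 17696 genes (78.5%), 827 of the 1083 higher genes and 493 of the 634 lower genes. As these are under 80% of each set, a comparison of motif shares between the sets is void and none is given. Among all matched genes, 8.65% had a window with the ISRE motif, 8.36% one with the GAS motif and 17.5% one with the κB motif. A match is not a site of binding. A second RefSeq start of Irf1 (chr11:53770223-53770472) and the start of Tap1, which was also induced, had no match and are not shown. The 250 bases before the start are shown for 4 induced genes described here, each with a match. They are in lower case with motif matches in capitals, on the strand of the gene.
Irf1 (chr11:53769764-53770013, plus strand, 1 GAS match): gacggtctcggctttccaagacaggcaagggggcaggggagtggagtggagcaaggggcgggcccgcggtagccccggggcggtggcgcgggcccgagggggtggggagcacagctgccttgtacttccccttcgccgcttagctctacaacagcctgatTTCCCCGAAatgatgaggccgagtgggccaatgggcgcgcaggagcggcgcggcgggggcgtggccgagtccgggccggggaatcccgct
Cxcl10 (chr5:92348890-92349139, minus strand, 1 ISRE and 2 κB matches): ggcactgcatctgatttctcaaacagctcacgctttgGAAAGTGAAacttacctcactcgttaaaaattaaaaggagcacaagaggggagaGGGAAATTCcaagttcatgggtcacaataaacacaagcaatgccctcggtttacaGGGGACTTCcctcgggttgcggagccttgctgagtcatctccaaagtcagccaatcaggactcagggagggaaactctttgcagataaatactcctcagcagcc
Gbp2 (chr3:142620413-142620662, plus strand, 1 ISRE and 1 κB match): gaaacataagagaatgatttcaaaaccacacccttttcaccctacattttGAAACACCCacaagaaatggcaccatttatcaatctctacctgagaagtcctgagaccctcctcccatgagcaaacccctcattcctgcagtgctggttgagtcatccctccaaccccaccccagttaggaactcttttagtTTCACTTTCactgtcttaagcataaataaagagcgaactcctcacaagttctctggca
Icam1 (chr9:21015690-21015939, plus strand, 1 GAS and 1 κB match): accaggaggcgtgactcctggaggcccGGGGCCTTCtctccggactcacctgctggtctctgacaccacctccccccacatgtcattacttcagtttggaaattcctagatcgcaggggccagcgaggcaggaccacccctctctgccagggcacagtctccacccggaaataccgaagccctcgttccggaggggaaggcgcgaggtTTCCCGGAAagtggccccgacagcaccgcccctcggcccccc

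Several chemokines rose. Cxcl10, which attracts T cells through the receptor CXCR3, was at 0.0732, 3.21, 3.53 and 31.1 CPM in ZIP replicates 1 to 4 and 581, 913, 1117 and 1136 CPM in ZIP+Cy. The untreated values span a wide range and the highest, in ZIP replicate 4, is still far below the lowest treated value. Its log2 fold change was 6.61 ± 0.77 (SE, adjusted p = 4.07e-07) and 8.66 without ZIP replicate 4. Cxcl9, a ligand of the same receptor, was at 0, 0.985, 1.8 and 12.5 CPM in ZIP replicates 1 to 4 and 191, 395, 620.0 and 469.7 CPM in ZIP+Cy, with a log2 fold change of 6.76 (8.75 without ZIP replicate 4). Cxcl11, another such ligand, was at 0, 0, 0 and 0.101 CPM in ZIP replicates 1 to 4 and 1.15, 3.15, 3.6 and 3.8 CPM in ZIP+Cy. Since 3 of its untreated libraries were at 0 and ZIP replicate 4 held no more than 3 reads, no fold change is given. The monocyte attractant Ccl2 rose from 1.02, 0.0729, 0.217 and 1.65 CPM to 31.2, 34.6, 60.9 and 61.9 CPM (log2 fold change 5.99 ± 0.44, SE, and 6.78 without ZIP replicate 4). Of 14 listed chemokines, 9 rose and none fell. Their median log2 fold change was 3.56, or 3.18 with the genes at 0 in a whole group set to the change that a limit of 3 reads allows.

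Among 15 cytokine genes, 6 rose and none fell. Csf1, the macrophage growth factor, was the most abundant after Tnfsf10 and rose from 21.3, 21.6, 23.6 and 33.4 CPM to 399, 399.8, 528 and 436 CPM (log2 fold change 4.14 ± 0.18 (SE), adjusted p = 8.45e-15). Tnfsf10, which encodes the death ligand TRAIL, was at 3.4, 5.03, 7.0 and 16 CPM in ZIP replicates 1 to 4 and 389, 491, 522 and 422 CPM in ZIP+Cy, with a log2 fold change of 5.85 ± 0.32 (SE) that became 6.45 without ZIP replicate 4. The Tnf message, whose product was also in the treatment, was at 0, 0, 0.031 and 0.168 CPM in ZIP replicates 1 to 4 and 3.67, 2.07, 6.4 and 4.51 CPM in ZIP+Cy, with a log2 fold change of 6.23 ± 0.56 (SE). Without ZIP replicate 4 the untreated group held 1 read, so no fold change is given for that setting. All treated libraries were above every untreated one. Il15, a growth factor of natural killer and memory T cells, was at 0 in the 4 untreated libraries and at 0.279, 0.588, 0.843 and 0.58 CPM in ZIP+Cy, which is at least 5.55-fold higher at a limit of 3 reads per library. Il1b, the gene of IL-1β, had a log2 fold change of 0.57 and was called higher without ZIP replicate 4 (0.67) or ZIP+Cy replicate 1 (0.68). The median of the list fell from 1.68 to 0.57 with such genes at their bound.

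Of 14 genes for nitric oxide synthesis and arginine supply, Nos2 alone was called with all libraries, a share near that of all genes called higher (6.12%). Ddah1 was added as lower when replicate numbers were a block. Ddah1, which degrades an inhibitor of the synthases, was at 1.17, 0, 0 and 0 CPM in ZIP replicates 1 to 4 and 0, 0, 0 and 0 CPM in ZIP+Cy, so its level rested on ZIP replicate 1. Nos2, the inducible nitric oxide synthase, was at 0, 0.109, 0.527 and 3.49 CPM in ZIP replicates 1 to 4 and 41.1, 85.9, 138 and 86.7 CPM in ZIP+Cy. Its log2 fold change was 6.37 ± 0.55 (SE, adjusted p = 2.15e-09), or 8.56 without ZIP replicate 4. Gch1, which starts synthesis of the NOS cofactor tetrahydrobiopterin, was at 57.6, 61.2, 53.4 and 60.8 CPM in ZIP replicates 1 to 4 and 59.6, 67.2, 67.8 and 65.1 CPM in ZIP+Cy with an adjusted p of 0.131, and the groups overlapped. Slc7a2, an arginine transporter, had a log2 fold change of −0.44 ± 0.11 (SE, adjusted p = 0.00354), under the fold limit, with levels of 373, 407, 466 and 325 CPM in ZIP replicates 1 to 4 and 285, 315, 311 and 252 CPM in ZIP+Cy.

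Guanylate-binding proteins and immunity-related GTPases, which defend cells against intracellular microbes, rose as a whole family. All 18 listed members were called higher, with log2 fold changes from 5.47 to 6.87 and a median of 6.50. Without ZIP replicate 4 all 18 were still called and the median was 8.27, or 8.15 with genes at 0 set to their bound. Gbp2 was at 0.0366, 2.55, 4.06 and 37.6 CPM in ZIP replicates 1 to 4 and 564, 1113, 1226 and 1349 CPM in ZIP+Cy (log2 fold change 6.58 ± 0.85 (SE), adjusted p = 1.8e-06), and its log2 fold change without ZIP replicate 4 was 8.86. Iigp1 was at 0, 5.18, 5.21 and 37.6 CPM in ZIP replicates 1 to 4 and 1141, 1376, 1275 and 1397 CPM in ZIP+Cy, with log2 fold changes of 6.75 and 8.52. In both genes ZIP replicate 1 was close to 0 and ZIP replicate 4 stood out among the untreated libraries. Igtp, the most abundant of the family after treatment, rose from 6.22, 11.6, 13 and 49.9 CPM to 1399, 1579, 1375 and 1732 CPM (log2 fold change 6.23 ± 0.44, SE, and 7.20 without ZIP replicate 4). Several of these genes are near-identical copies, for example Tgtp1 and Tgtp2, so the division of reads among them is uncertain.

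Antiviral effectors followed the same course, with 26 of 28 listed genes higher and none lower (median 4.92, 5.41 without ZIP replicate 4). The ubiquitin-like Isg15 was at 0.549, 0.62, 0.806 and 3.29 CPM in ZIP replicates 1 to 4 and 44.8, 64.8, 80.2 and 83.2 CPM in ZIP+Cy, with log2 fold changes of 5.67 ± 0.33 (SE) and 6.67 without ZIP replicate 4. Oasl2, an OAS-like antiviral protein, rose from 2.09, 2.12, 2.94 and 13.6 CPM to 306, 447, 484 and 479 CPM (6.36 and 7.48 on the log2 scale). Mx1, an antiviral GTPase, changed less, from 2.96, 2.04, 1.64 and 1.55 CPM to 7.68, 8.33, 11.4 and 10.4 CPM (log2 fold change 2.21 ± 0.23 (SE), adjusted p = 7.56e-08). Ifitm3, a membrane protein that blocks virus entry, was at 0, 0, 0.031 and 0.101 CPM in ZIP replicates 1 to 4 and 3.0, 5.6, 12 and 9.67 CPM in ZIP+Cy, and as its untreated libraries held at most 3 reads each no fold change is given. Its neighbour in family Ifitm2 was at 1.87, 1.75, 1.77 and 1.95 CPM in ZIP replicates 1 to 4 and 2.58, 1.66, 3.07 and 3.58 CPM in ZIP+Cy with an adjusted p of 0.0258, under the fold limit, and it passed that limit without ZIP replicate 4 (log2 fold change 0.60, adjusted p = 0.0356), ZIP+Cy replicate 1 (0.59) or ZIP+Cy replicate 2 (0.75).

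Nucleic acid sensors rose in 16 of 20 cases, with none lower. The DNA and Z-RNA sensor Zbp1 was at 0, 1.24, 1.05 and 9.91 CPM in ZIP replicates 1 to 4 and 217, 310.2, 323 and 370.4 CPM in ZIP+Cy, with log2 fold changes of 6.62 ± 0.60 (SE) and 8.61 without ZIP replicate 4. Ddx58, which encodes the RNA sensor RIG-I, rose from 5.56, 4.19, 3.78 and 6.45 CPM to 86.9, 113, 131 and 120.5 CPM (log2 fold change 4.50 ± 0.17 (SE), adjusted p = 5.81e-16). Ifi204 was at 0 in ZIP replicates 1 to 3, at 0.269 CPM in ZIP replicate 4 and at 4.23, 8.75, 13.8 and 11.7 CPM in ZIP+Cy. Without ZIP replicate 4 this was at least 92.3-fold higher at a limit of 3 reads per library. The list median was 4.69, and 3.62 with the genes at 0 at their bound. Of 18 PARP and TRIM genes, 17 rose and none fell, led in level by Parp14, an ADP-ribosyltransferase, at 19.8, 20.6, 21.6 and 37.1 CPM in ZIP replicates 1 to 4 and 654, 867, 822 and 847 CPM in ZIP+Cy (log2 fold change 5.01 ± 0.17, SE).

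Antigen presentation genes of the class I route rose. Of 17 genes, 14 were called higher and none lower (median 3.72). The heavy chain H2-K1 was at 202, 235, 228 and 328 CPM in ZIP replicates 1 to 4 and 3165, 3406, 3264 and 3300.0 CPM in ZIP+Cy (log2 fold change 3.72 ± 0.13 (SE), adjusted p = 2.05e-16). B2m, the light chain, was at 21.9, 34.3, 28.9 and 96.5 CPM in ZIP replicates 1 to 4 and 2331, 2710.4, 2519 and 2701 CPM in ZIP+Cy, and its log2 fold change of 5.82 ± 0.36 (SE) became 6.50 without ZIP replicate 4. Tap1, a subunit of the peptide transporter, rose from 9.26, 9.7, 10.1 and 24.8 CPM to 438, 492, 466 and 543 CPM (log2 fold change 5.17 ± 0.23 (SE), adjusted p = 8.33e-15). The general chaperones of the endoplasmic reticulum were not called, with log2 fold changes of 0.21 for Calr (adjusted p = 0.262) and −0.064 for Canx (adjusted p = 0.503). Nlrc5, the activator of class I genes, was at 0.329, 0.438, 0.868 and 2.99 CPM in ZIP replicates 1 to 4 and 98.9, 111, 115 and 113 CPM in ZIP+Cy, with log2 fold changes of 6.54 ± 0.33 (SE) and 7.60 without ZIP replicate 4. Near-identical H2 genes could share reads, so the values of single members are uncertain.

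Proteasome subunits differed in their response. The inducible catalytic subunits Psmb8, Psmb9 and Psmb10 rose from means of 4.95 to 286 CPM, 2.9 to 128 CPM and 4.18 to 145 CPM. By library, Psmb8 was at 3.15, 2.74, 3.44 and 10.5 CPM in ZIP replicates 1 to 4 and 248, 288, 293 and 317 CPM in ZIP+Cy, with a log2 fold change of 5.84 ± 0.27 (SE) that became 6.52 without ZIP replicate 4. The constitutive subunits that they replace were not called. Psmb5 was at 53.9, 55.6, 53.1 and 57.3 CPM in ZIP replicates 1 to 4 and 57.7, 57.5, 61 and 64.7 CPM in ZIP+Cy (log2 fold change 0.13 ± 0.068, SE, adjusted p = 0.162), Psmb7 had one of 0.13 ± 0.062 (SE, adjusted p = 0.139), and Psmb6 had a log2 fold change of 0.18 ± 0.065 (SE, adjusted p = 0.0431), under the fold limit. Of 7 immunoproteasome and activator genes 5 rose, compared with 2 of 14 constitutive core genes, a count that was 4 without ZIP replicate 4, with Psma2 (0.60) and Psma4 (0.59) added, of which Psma2 was also called without ZIP+Cy replicate 1 (0.58). Neither list had a lower member. All 14 constitutive core genes had positive log2 fold changes, with a median of 0.40, and 11 had an adjusted p under 0.05 at any fold.

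Class II genes, usually limited to professional antigen-presenting cells, also rose, with 8 of 10 listed genes higher and none lower. Ciita, their master activator, was at 0, 0.109, 0.031 and 0.437 CPM in ZIP replicates 1 to 4 and 3.6, 6.5, 7.86 and 6.64 CPM in ZIP+Cy, with log2 fold changes of 5.36 ± 0.50 (SE) and 6.94 without ZIP replicate 4. Cd74, the invariant chain, reached the highest level of the list, at 0.842, 1.2, 0.806 and 7.39 CPM in ZIP replicates 1 to 4 and 202, 265, 366 and 255 CPM in ZIP+Cy (6.72 ± 0.51, SE, and 8.17 on the log2 scale). The α chain H2-Aa rose from 0.183, 0, 0 and 0.269 CPM to 2.86, 6.95, 11 and 6.29 CPM (5.87, and 6.78 without ZIP replicate 4). The treated groups lie apart from the untreated ones in all 3 genes. Macrophage and B cell markers, whose cells express class II genes, stood at the sums given above, and none was called with all libraries, while without ZIP replicate 4 the macrophage markers C1qa (−0.62) and Itgam (−3.75) were called lower, C1qa also without ZIP+Cy replicate 1 (−0.67). The value of Itgam rested on ZIP replicate 1 and was 0.97 without it. The pan-leukocyte marker Ptprc had mean levels of 0.0443 ± 0.0356 CPM in ZIP and 0.131 ± 0.196 CPM in ZIP+Cy, with a log2 fold change of 1.47 that was not called and turned to −0.32 without ZIP+Cy replicate 3.

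Surface molecules read by immune cells rose in 12 of 17 cases and fell in 1. Cd274, which encodes the checkpoint ligand PD-L1, was at 4.06, 4.49, 4.93 and 9.58 CPM in ZIP replicates 1 to 4 and 141, 213, 191 and 209 CPM in ZIP+Cy (log2 fold change 5.03 ± 0.22 (SE), adjusted p = 8.45e-15). The adhesion molecule Icam1 was at 0.183, 0.109, 0.279 and 2.49 CPM in ZIP replicates 1 to 4 and 40.8, 59.3, 114 and 76.6 CPM in ZIP+Cy, with log2 fold changes of 6.54 ± 0.47 (SE) and 8.51 without ZIP replicate 4. Cd47, the signal that limits phagocytosis, rose from 101, 98.6, 101 and 110.2 CPM to 187, 212, 220.2 and 228 CPM (log2 fold change 1.04 ± 0.062 (SE), adjusted p = 2.31e-12). Ceacam1, an inhibitory adhesion molecule, fell from 24.5, 21.6, 20.02 and 20.3 CPM to 15.2, 13.7, 14.1 and 11.9 CPM (log2 fold change −0.65 ± 0.13 (SE), adjusted p = 0.000507). Complement genes rose in 7 of 16 cases and 1 fell, Cd59a, from a mean of 0.208 to 0.00806 CPM, a level of few reads. Its fall did not pass the test with replicate numbers as a block (adjusted p = 0.0777), in the fit of both ZIP groups alone (−4.01 on the log2 scale), or without ZIP replicate 1 (−1.58) or any single ZIP+Cy replicate (−3.76, −3.76, −3.78 and −5.71). The complement inhibitor Serping1 was at 3.0, 3.87, 4.99 and 26.2 CPM in ZIP replicates 1 to 4 and 647, 858, 923 and 933 CPM in ZIP+Cy (6.46 ± 0.51, SE, and 7.72 without ZIP replicate 4), and the proteases C1ra and C1s1 and factor B (Cfb) reached mean treated levels of 99.1, 45.1 and 236 CPM. The median of the complement list was 3.85, but 0.73 with the genes at 0 set to their bound.

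Genes of cell death moved unevenly. Of the 17 caspases and related genes analysed, 8 rose and none fell (median 0.56). Casp8, the initiator caspase of death receptors, rose from 4.72, 6.31, 7.1 and 6.42 CPM to 13.8, 13.5, 15.3 and 14.2 CPM (log2 fold change 1.21 ± 0.099 (SE), adjusted p = 9.43e-10). Casp1, an inflammatory caspase, was at 0.329, 0.219, 0.868 and 1.08 CPM in ZIP replicates 1 to 4 and 22.3, 27.9, 39.9 and 34.6 CPM in ZIP+Cy, with a log2 fold change of 5.60 ± 0.31 (SE). Casp4, which senses cytosolic lipopolysaccharide, was at 0, 0.0365, 0.031 and 0.773 CPM in ZIP replicates 1 to 4 and 9.04, 14.1, 20.6 and 18.6 CPM in ZIP+Cy, with a log2 fold change of 6.16 ± 0.50 (SE). Its other untreated libraries held 2 reads in all, so no fold change is given without ZIP replicate 4. Mlkl, the effector of necroptosis, rose from 5.82, 6.13, 6.66 and 11.2 CPM to 49.5, 66, 63.6 and 73.5 CPM (log2 fold change 3.08 ± 0.17, SE), and the inhibitor of apoptosis Birc3 from 1.33 to 21 CPM. In the BCL2 family 3 of 15 genes rose and none fell. These were the proapoptotic Bid, Bak1 and Bok, with log2 fold changes of 2.69 ± 0.14, 1.33 ± 0.09 and 1.07 ± 0.14 (SE). The protective Bcl2l1 was at 34.5, 34.8, 34.1 and 32.2 CPM in ZIP replicates 1 to 4 and 38.7, 39.3, 38.2 and 35.4 CPM in ZIP+Cy (adjusted p = 0.0405, under the fold limit) and Mcl1 had a log2 fold change of 0.081 ± 0.053 (SE, adjusted p = 0.29).

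**Figure D3:**
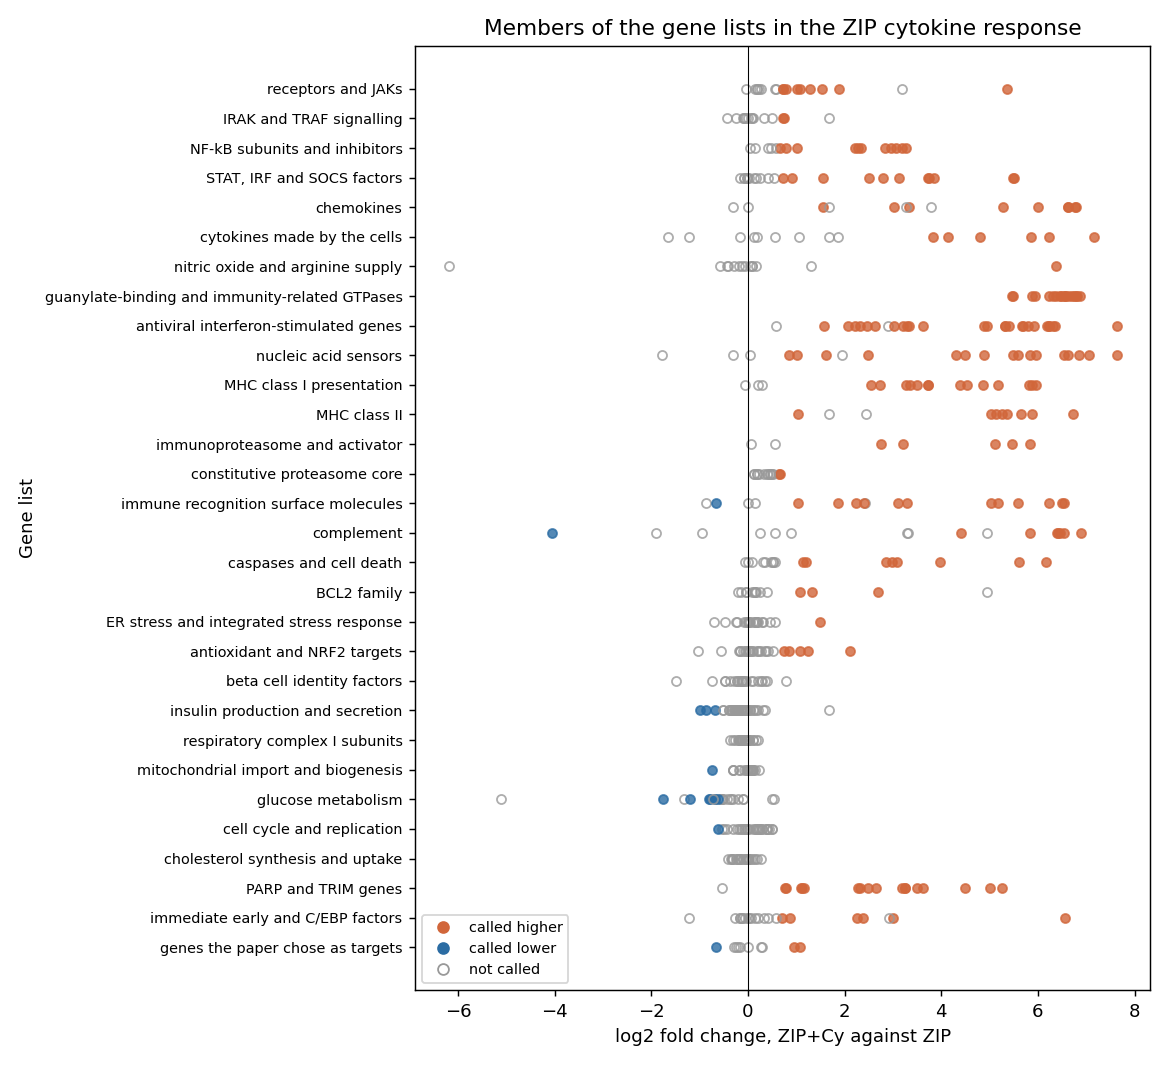
Log2 fold change of every listed gene in ZIP+Cy against ZIP (horizontal axis), by gene list, with genes called higher or lower filled and others open. The interferon, antigen presentation and GTPase lists lie to the right, while β cell identity, complex I and cholesterol genes centre near 0 and called glucose metabolism genes lie to the left.

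Of 22 genes of the unfolded protein and integrated stress responses, 1 rose and none fell, a share near that of all genes called higher (6.12%). This was Atf3, a stress-induced transcription factor, at 4.32, 5.14, 5.55 and 4.07 CPM in ZIP replicates 1 to 4 and 10.5, 11.4, 14.6 and 17.5 CPM in ZIP+Cy (log2 fold change 1.5 ± 0.18 (SE), adjusted p = 4.78e-07). The ER chaperone Hspa5 (BiP) was at 1927, 2378, 1952 and 2771 CPM in ZIP replicates 1 to 4 and 2433, 2542, 2196 and 2998 CPM in ZIP+Cy (log2 fold change 0.17 ± 0.11 (SE), adjusted p = 0.262) and the proapoptotic factor Ddit3 (CHOP) at 19.2, 28.5, 32.2 and 22.5 CPM in ZIP replicates 1 to 4 and 23.6, 35, 45.8 and 35.5 CPM in ZIP+Cy (adjusted p = 0.195). Their groups overlapped. Ern1, which encodes the sensor IRE1α, had a log2 fold change of 0.55 ± 0.10 (SE, adjusted p = 0.000208) just under the fold limit, which it passed without ZIP replicate 4 (0.61) or ZIP+Cy replicate 3 (0.61). Of 27 antioxidant genes, 5 rose and none fell. Gpx1, a glutathione peroxidase, rose from 115, 128, 104 and 122 CPM to 227, 266, 230.1 and 274 CPM (log2 fold change 1.09 ± 0.081 (SE), adjusted p = 1.76e-10). Hmox1, haem oxygenase, rose from 31.1, 41.4, 43.1 and 51 CPM to 76.8, 106, 98.6 and 113 CPM (log2 fold change 1.24 ± 0.16 (SE), adjusted p = 2.53e-06). Slc7a11, the cystine transporter, rose from 7.93 to 13.3 CPM (log2 fold change 0.75 ± 0.23 (SE), adjusted p = 0.0168), a call that was lost without ZIP replicate 1 (0.68). The metallothionein Mt1 had a log2 fold change of −0.55 ± 0.13 (SE, adjusted p = 0.00285), and it was called lower without ZIP replicate 4 (−0.60) or ZIP+Cy replicate 1 (−0.59).

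None of 23 β cell identity factors was called in either direction. Of all genes tested, 6.12% were called higher and 3.58% lower, so a list of this size would hold few calls at those shares. Their log2 fold changes lay between −1.48 and 0.78, and the median log2 fold change was −0.13. Pdx1, a master regulator of the β cell, was at 965, 926, 988 and 848 CPM in ZIP replicates 1 to 4 and 810.3, 813, 842 and 709 CPM in ZIP+Cy (log2 fold change −0.23 ± 0.061, SE, adjusted p = 0.00608). Nkx6-1 was at 370.2, 309, 311 and 321 CPM in ZIP replicates 1 to 4 and 284, 258, 226 and 250.3 CPM in ZIP+Cy (log2 fold change −0.36 ± 0.074 (SE), adjusted p = 0.00059) and Pax6 at 569, 488, 605 and 448 CPM in ZIP replicates 1 to 4 and 410.4, 373, 399 and 343 CPM in ZIP+Cy (log2 fold change −0.47 ± 0.086 (SE), adjusted p = 0.000201). The 4 treated values of each gene were below the 4 untreated ones. Of the 23 factors, 7 had no overlap of the groups in either direction, a share near the 26.2% of all genes. Neurod1 was at 198, 179, 190.2 and 173 CPM in ZIP replicates 1 to 4 and 259.6, 243, 249.5 and 224 CPM in ZIP+Cy (log2 fold change 0.40 ± 0.055 (SE), adjusted p = 5.59e-06), with all treated values above the untreated ones, and Mafa, an activator of insulin genes, had groups that overlapped (log2 fold change −0.19 ± 0.11, SE, adjusted p = 0.231).

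The hormones of the β cell lay within the fold limit, in both directions. Ins2 was at 14738, 15850.3, 15142 and 14125 CPM in ZIP replicates 1 to 4 and 11560.1, 11451, 10300.3 and 12350.3 CPM in ZIP+Cy (log2 fold change −0.39 ± 0.11, SE, adjusted p = 0.00951) and Ins1 at 1307, 1309, 1429 and 1176 CPM in ZIP replicates 1 to 4 and 1058, 1024, 900.5 and 1126 CPM in ZIP+Cy (log2 fold change −0.35 ± 0.14, SE, adjusted p = 0.0639). Iapp, which encodes the cosecreted peptide amylin, was at 6401, 6965, 5967 and 6780.1 CPM in ZIP replicates 1 to 4 and 8577, 8311, 8062 and 8403 CPM in ZIP+Cy (log2 fold change 0.35 ± 0.072, SE, adjusted p = 0.000614). None of the 3 reached the fold limit, with Ins1 and Ins2 lower in every treated library and Iapp higher. Of the 36 genes of insulin production and secretion analysed, none rose and 3 fell. Slc30a8, the zinc transporter of insulin granules, fell from 173, 138, 144 and 105 CPM to 99.5, 76.7, 68.3 and 61 CPM (log2 fold change −0.87 ± 0.23 (SE), adjusted p = 0.00615). The incretin receptor Glp1r fell from 178, 156, 172 and 126 CPM to 109, 103, 103 and 79.3 CPM (log2 fold change −0.69 ± 0.098 (SE), adjusted p = 8.61e-06) and its relative Gipr from 12.9, 11.2, 10.5 and 9.24 CPM to 6.88, 6.4, 3.68 and 5.09 CPM (log2 fold change −0.99 ± 0.17 (SE), adjusted p = 9.52e-05). The glucose transporter Slc2a2 (GLUT2) was at 167, 129.8, 171 and 93.9 CPM in ZIP replicates 1 to 4 and 130.4, 96, 98.2 and 66.4 CPM in ZIP+Cy, not called with all libraries (adjusted p = 0.122) and called lower without ZIP replicate 4 (log2 fold change −0.67, adjusted p = 0.0472). Of markers of other islet cells, Ttr, a transport protein abundant in α cells, fell from a mean of 4061 to 2402 CPM (log2 fold change −0.76 ± 0.27 (SE), adjusted p = 0.0439), a call that was lost without ZIP replicate 1, 2 or 3 or ZIP+Cy replicate 2, 3 or 4 (log2 fold changes from −0.81 to −0.69), and in DESeq2 (−0.76).

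Several glycolytic genes fell. Of 23 genes of glucose metabolism, 6 fell and none rose, 21 had a negative log2 fold change and the median was −0.54. Pdk1, which restrains entry of pyruvate into mitochondria, was at 192, 141, 253 and 142 CPM in ZIP replicates 1 to 4 and 101, 64.1, 69.4 and 80.9 CPM in ZIP+Cy (log2 fold change −1.20 ± 0.38 (SE), adjusted p = 0.022). Pgk1 was at 528, 493, 751 and 478 CPM in ZIP replicates 1 to 4 and 368, 295, 279 and 355 CPM in ZIP+Cy (log2 fold change −0.79 ± 0.26 (SE), adjusted p = 0.0266). Eno1 was at 628, 571, 866 and 524 CPM in ZIP replicates 1 to 4 and 431, 335, 308 and 415 CPM in ZIP+Cy (log2 fold change −0.80 ± 0.28 (SE), adjusted p = 0.0385). ZIP replicate 3 was the highest library for each of them, and treated libraries were all below untreated ones. Pgam1 fell from 762 to 474 CPM (log2 fold change −0.68 ± 0.22 (SE), adjusted p = 0.0212), and Hk2, at under 1 CPM, was also called. Pdk2 had a log2 fold change of −0.62 ± 0.16 (SE, adjusted p = 0.00523), a call that was lost without ZIP replicate 1 (−0.54), ZIP replicate 3 (−0.54), ZIP+Cy replicate 3 (−0.57) or ZIP+Cy replicate 4 (−0.56). Ldha, lactate dehydrogenase, was at 280.1, 232, 433 and 246 CPM in ZIP replicates 1 to 4 and 158, 88.2, 82.2 and 149.7 CPM in ZIP+Cy, with a log2 fold change of −1.32 ± 0.49 (SE). Its adjusted p was 0.051 in the fit of group means and 0.0327 with replicate numbers as a block, and it was also called in DESeq2 (−1.32), with filterByExpr (−1.32) and in the fit of both ZIP groups alone (−1.31). The glucose transporter Slc2a1 was called lower with that block as well (−0.74) and in the fit of both ZIP groups alone (−0.72), and hexokinase Hk1 higher without ZIP replicate 4 (0.82). The calls of Pdk1, Pgk1, Eno1 and Pgam1 were lost without ZIP replicate 3 (log2 fold changes −1.01, −0.63, −0.63 and −0.56), and also without ZIP+Cy replicate 2 (−1.12, −0.75, −0.75 and −0.65) or ZIP+Cy replicate 3 (−1.15, −0.73, −0.72 and −0.63). That of Eno1 was further lost without ZIP replicate 1 (−0.81) or ZIP+Cy replicate 4 (−0.85).

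**Figure D4:**
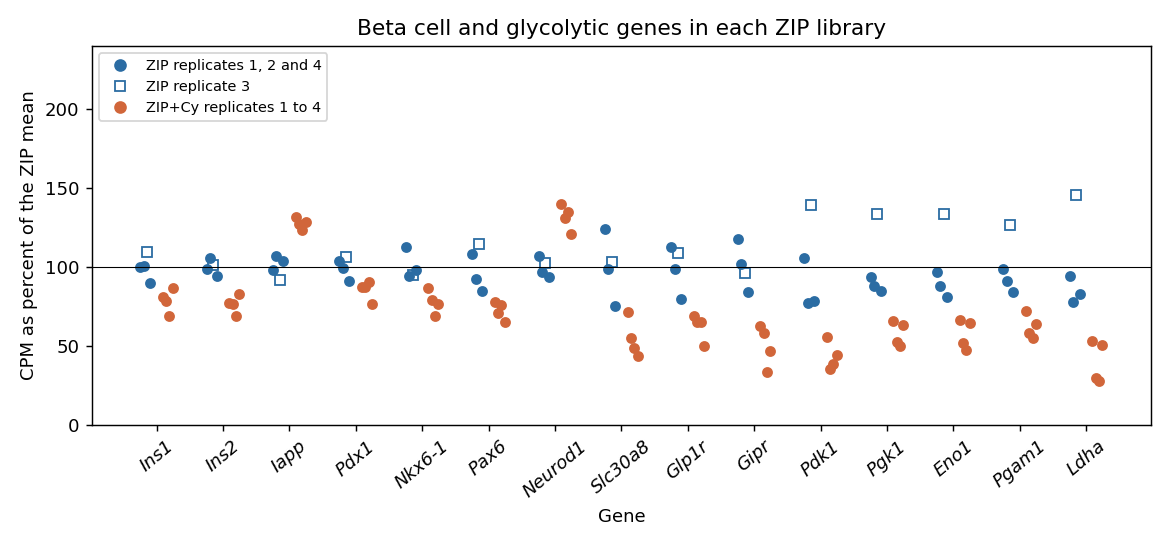
CPM of 15 β cell and glycolytic genes in each ZIP library, as percent of the mean of the 4 untreated libraries, with ZIP replicate 3 as open squares. Iapp and Neurod1 lie above 100% after treatment and the other genes below, and ZIP replicate 3 is the highest untreated library for the 5 glycolytic genes at the right.

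Mitochondrial and cholesterol genes held few called members, where 6.12% of all genes tested were called higher and 3.58% lower. None of 37 subunits of respiratory complex I was called, and their median log2 fold change was −0.059. Of 22 genes for mitochondrial import and biogenesis, 1 fell and none rose, a share near that of all genes called lower (3.58%). This was Ppargc1b, a coactivator of mitochondrial genes, which fell from 14.6, 13, 15.1 and 12.4 CPM to 8.1, 9.09, 9.24 and 6.48 CPM (log2 fold change −0.74 ± 0.13 (SE), adjusted p = 0.000156). None of 26 cholesterol synthesis and uptake genes was called (median −0.098). Of 30 cell cycle genes, 1 fell and none rose, again near the 3.58% of all genes called lower. This was Ccnd2, the main D-type cyclin of β cells, at 3363, 2833, 2781 and 2813 CPM in ZIP replicates 1 to 4 and 2259, 1981, 1662 and 1791 CPM in ZIP+Cy (log2 fold change −0.62 ± 0.14 (SE), adjusted p = 0.0024). That call was lost without ZIP replicate 1 (−0.55), whose value was the highest, and without ZIP+Cy replicate 3 (−0.55) or ZIP+Cy replicate 4 (−0.58). The proliferation marker Mki67 had a log2 fold change of −0.50 ± 0.08 (SE, adjusted p = 3.49e-05), under the fold limit, and the replication helicase subunit Mcm5 one of 0.49 ± 0.063 (SE, adjusted p = 1.99e-06). Cdc6, which loads that helicase, was called higher without ZIP replicate 4 (0.60). Among 22 immediate early and C/EBP factors, 6 rose and none fell, among them the AP-1 subunits Junb, from 9.22 to 44 CPM, and Jun, from 66.2, 73.7, 80.4 and 52.2 CPM to 101, 104, 120.0 and 118 CPM, and the growth regulator Myc, from 6.55 to 11.9 CPM.

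The study followed 10 genes, all predicted targets of miR-146a-5p except Gpx1, which its methods describe as not predicted to be a direct target. The list was chosen partly on these libraries and so is not independent evidence of a direction. It held 2 higher members and 1 lower member (median −0.075). Nrg1, a ligand of ERBB receptors, rose from 4.61, 3.57, 3.35 and 4.13 CPM to 6.46, 7.19, 8.05 and 8.58 CPM (log2 fold change 0.95 ± 0.18 (SE), adjusted p = 0.000209), and Gpx1 is described above. Mapt, which encodes tau, fell from 311, 255, 339.9 and 244 CPM to 208, 168, 198 and 156 CPM (log2 fold change −0.66 ± 0.15 (SE), adjusted p = 0.0019), a call that was lost without ZIP replicate 3 (−0.57). Myrip, which links insulin granules to actin, was at 11.7, 13.1, 13.4 and 12.9 CPM in ZIP replicates 1 to 4 and 13.7, 12, 9.7 and 10.4 CPM in ZIP+Cy (adjusted p = 0.64). Sort1, the sorting receptor sortilin, had a log2 fold change of −0.21 ± 0.058 (SE, adjusted p = 0.0095), under the fold limit, and Glrx, glutaredoxin, one of 0.0077 ± 0.072 (SE, adjusted p = 0.971).

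The 15 largest falls among called genes of at least 5 CPM without overlap between the groups had log2 fold changes from −1.91 to −1.32. Necab2, a neuronal calcium-binding protein, led them at 19.9, 21.4, 19.7 and 25 CPM in ZIP replicates 1 to 4 and 6.46, 5.5, 4.45 and 6.35 CPM in ZIP+Cy (log2 fold change −1.91 ± 0.14 (SE), adjusted p = 8.93e-11). Gfra1, a coreceptor for the factor GDNF, was at 17.2, 19, 17.1 and 20.2 CPM in ZIP replicates 1 to 4 and 5.73, 5.95, 3.91 and 5.61 CPM in ZIP+Cy (log2 fold change −1.79 ± 0.15 (SE), adjusted p = 9.47e-10). Rph3a, an effector of Rab3 in vesicle docking, fell from 7.1, 5.87, 8.21 and 5.75 CPM to 2.2, 2.39, 2.45 and 1.64 CPM (log2 fold change −1.64 ± 0.27 (SE), adjusted p = 5.08e-05). The adhesion molecule Jam2 fell from 18.4 to 6.38 CPM, the calsyntenin Clstn2 from 63.4 to 23 CPM, the semaphorin Sema6a from 9.58 to 2.77 CPM and the sorting receptor Sorcs1 from 6.09 to 2.03 CPM. Hspa1a, the inducible heat shock protein HSP70, fell from 18.6, 36, 34.9 and 19.6 CPM to 6.6, 12.8, 5.02 and 9.58 CPM (log2 fold change −1.68 ± 0.31 (SE), adjusted p = 0.000201). The others were F13a1, Colgalt2, Aard, Cd93, Plekhg1, Frzb and Diras2. Lack of overlap was a condition of the choice, so the separation of the groups in these 15 genes is no further result. Without ZIP replicate 4 all 15 were still called, with log2 fold changes from −2.01 (Sema6a) to −1.32 (Diras2).

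The largest rises chosen in the same way were Ifitm3, Ifi204, C1ra, Gbp10, Ifi211, Ifi47, Gbp6, Phf11d, Cxcl9, Iigp1, Cd74, Neurl3, Tgtp2, Serpina3g and Gbp3. This choice depended on ZIP replicate 4, since only 7 of the 15 were among the 15 largest rises of the same genes without that library. Gbp2, with a log2 fold change of 8.86 in that setting, was 1 of the 8 genes that entered. Ranks are uncertain where untreated reads were few. Ifitm3, Gbp10, Ifi211 and Ifi204 held 4, 7, 7 and 8 reads over the 4 untreated libraries. Most of the genes named here belong to groups described above. Of the rest, the ubiquitin ligase Neurl3 was at 0.439, 1.5, 2.48 and 13.3 CPM in ZIP replicates 1 to 4 and 340.4, 453, 646 and 445 CPM in ZIP+Cy (log2 fold change 6.72 ± 0.53, SE, and 8.28 without ZIP replicate 4). The serine protease inhibitor Serpina3g was at 0, 0.0729, 0.031 and 0.605 CPM in ZIP replicates 1 to 4 and 8.76, 18.8, 25.6 and 21.7 CPM in ZIP+Cy (log2 fold change 6.67 ± 0.56, SE). Without ZIP replicate 4 the untreated group held 3 reads of Serpina3g, so no fold change is given for it in that setting. Both were lowest in ZIP replicate 1 and highest among untreated libraries in ZIP replicate 4. Among the most abundant genes whose call depended on ZIP replicate 4, the growth factor Igf2 was at 13239.9, 11396, 12181 and 11262 CPM in ZIP replicates 1 to 4 and 8654, 7779.7, 7589.6 and 8511 CPM in ZIP+Cy (log2 fold change −0.56 with and −0.59 without it), and the fatty acid desaturase Scd1, the transcription factor Onecut2 and the ER oxidase Ero1a had log2 fold changes of −0.68, −0.58 and −0.56 with it and −0.64, −0.69 and −0.59 without it. Igf2, Onecut2 and Ero1a were thus called lower without that library and Scd1 was not, with adjusted p values of 0.0245 and, without it, 0.0513. The calls turned on other libraries too. Igf2 was called lower without ZIP replicate 2 (−0.59), ZIP+Cy replicate 1 (−0.60) or ZIP+Cy replicate 4 (−0.59). Ero1a was called without ZIP replicate 2 (−0.60) or ZIP+Cy replicate 1 (−0.62), and Onecut2 without ZIP replicate 2 (−0.60), ZIP+Cy replicate 1 (−0.66) or ZIP+Cy replicate 2 (−0.64), in DESeq2 (−0.59), with its size factors in edgeR (−0.59) and with filterByExpr (−0.59). The call of Scd1 was lost without ZIP replicate 2 (−0.62) or ZIP+Cy replicate 3 (−0.61).

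Whether the ZIP response differed from that of the control line was tested as the difference between both responses. In Scr cells, cytokines raised 1055 genes (5.96%) and lowered 285 (1.61%), and 830 genes were higher in both lines (76.6% of the ZIP and 78.7% of the Scr genes). Of the lower genes, 195 were shared (30.8% of the ZIP and 68.4% of the Scr genes), and no gene was called in opposite directions. The test of the difference called 10 of 17696 genes (0.0565%), with a ratio of responses of at least 1.5 and an adjusted p under 0.05. With replicate numbers as a block it called 31 and DESeq2 called 29, and both sets held all 10.

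For 9 of the 10 genes the difference of log2 responses, ZIP minus Scr, was positive. The balance of directions depended on the method, with 19 positive and 12 negative among the 31 genes of the block, 20 and 9 among the 29 of DESeq2, and 182 and 401 among the 583 genes at the study's unadjusted threshold. The block also called Bid (0.91, adjusted p = 0.00742, against 0.11 without it) and Necab2 (difference −0.78). Pim2 (chrX:7878306-7883433 in mm10), a survival kinase, rose from 47.2, 43.3, 56.2 and 48.4 CPM to 226, 201, 218 and 206 CPM in ZIP cells and from 58.3, 56, 57.9 and 57.8 CPM to 140.4, 129, 132 and 108 CPM in Scr cells. The difference was 0.98 ± 0.13 (SE), adjusted p = 0.000896. Ptpn11 (chr5:121130533-121191398), which encodes the phosphatase SHP2, rose in ZIP from 522, 478, 482 and 483 CPM to 896, 809, 726 and 725 CPM, while it was at 436, 535, 499 and 431 CPM in Scr and 499.8, 522, 505 and 423 CPM in Scr+Cy. Its groups overlapped in Scr and did not in ZIP, with a difference of 0.65 ± 0.11 (SE), adjusted p = 0.0132. Ism1 (chr2:139678178-139758582), a secreted protein, was at 3.62, 4.08, 4.74 and 3.46 CPM in ZIP replicates 1 to 4 and 8.52, 7.67, 10.8 and 7.54 CPM in ZIP+Cy and at 4.72, 4.6, 5.09 and 4.61 CPM in Scr and 4.37, 3.1, 4.74 and 3.99 CPM in Scr+Cy, with a difference of 1.35 ± 0.23 (SE), adjusted p = 0.0132. In these 3 genes the untreated libraries of both lines overlapped. For Pim2 the untreated mean was still lower in ZIP than in Scr (48.8 against 57.5 CPM), as for Ism1 (3.98 against 4.76 CPM). For Ptpn11 it was 491 CPM in ZIP and 475 CPM in Scr. The call of the difference was lost for Ism1 without ZIP+Cy replicate 3 (1.22) and for Ptpn11 without Scr replicate 2 (0.58) or Scr+Cy replicate 4 (0.58).

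In the other 7 genes the untreated libraries of both lines did not overlap, and all but Ntn1 were lower in ZIP. Casp8 (chr1:58795374-58847504), with the ZIP values given above, was at 11.5, 13.8, 12.5 and 14.3 CPM in Scr and 17.4, 17.5, 20.2 and 17.6 CPM in Scr+Cy, and the difference was 0.73 ± 0.13 (SE), adjusted p = 0.0291. The mean of ZIP+Cy, 14.2 CPM, lay within the range of untreated Scr. This call was lost without any 1 of 8 libraries (Scr replicates 2 and 4, Scr+Cy replicates 1, 2 and 4, ZIP replicate 2 and ZIP+Cy replicates 3 and 4), where the difference was 0.68 to 0.75, and in the fit of Scr and ZIP groups alone (0.74). Cebpd, an inflammatory C/EBP factor, was at 0.768, 0.365, 0.372 and 0.605 CPM in ZIP replicates 1 to 4 and 3.49, 4.11, 4.25 and 4.93 CPM in ZIP+Cy, and at 7.47, 6.55, 5.19 and 5.98 CPM in Scr and 12, 10.6, 12.4 and 12.6 CPM in Scr+Cy (difference 2.07 ± 0.35 (SE), adjusted p = 0.0124). The RNA-binding Rbms1 was at 0.439, 0.182, 0.372 and 0.437 CPM in ZIP replicates 1 to 4 and 1.75, 2.39, 3.64 and 3.58 CPM in ZIP+Cy, and at 9.14, 7.93, 10.2 and 9.69 CPM in Scr and 19.8, 22.5, 21.5 and 22.5 CPM in Scr+Cy (difference 1.74 ± 0.31 (SE), adjusted p = 0.0178). Both were below every untreated Scr library in each ZIP+Cy library. Their calls were lost without ZIP replicate 2 (1.96 and 1.55), and that of Rbms1 also without ZIP replicate 3 (1.77), ZIP+Cy replicate 3 (1.61) or ZIP+Cy replicate 4 (1.60). Mpzl1, a binding partner of SHP2, was at 34, 34.1, 39.7 and 39.8 CPM in ZIP replicates 1 to 4 and 56.3, 54.1, 59.98 and 61.3 CPM in ZIP+Cy, and at 59.5, 70.6, 66.9 and 67.5 CPM in Scr and 56.8, 66.2, 64.2 and 65.6 CPM in Scr+Cy (difference 0.72 ± 0.097 (SE), adjusted p = 0.000896). Crybg1, of the crystallin-like AIM1 family, was at 21.4, 22.2, 25.6 and 30.9 CPM in ZIP replicates 1 to 4 and 123, 133, 128 and 148 CPM in ZIP+Cy, and at 41.9, 48.5, 51.3 and 49 CPM in Scr and 109, 149, 152 and 126 CPM in Scr+Cy (difference 0.92 ± 0.15 (SE), adjusted p = 0.00688). Hgsnat, a lysosomal acetyltransferase, was at 66.7, 69.4, 64 and 65.9 CPM in ZIP replicates 1 to 4 and 49.3, 46, 45.6 and 46.7 CPM in ZIP+Cy, under the fold limit, and fell from 171, 175, 144 and 124 CPM to 69.7, 60.8, 56.2 and 57.3 CPM in Scr. Its positive difference (0.83 ± 0.11 (SE), adjusted p = 0.000986) is thus a smaller decrease in ZIP. Ntn1, which encodes the guidance cue netrin-1, was the gene with a negative difference (−1.38 ± 0.18 (SE), adjusted p = 0.000896). It was at 43.2, 48.9, 49.7 and 63.1 CPM in ZIP replicates 1 to 4 and 39, 38.4, 33.2 and 46.7 CPM in ZIP+Cy and at 2.05, 2.36, 2.22 and 2.97 CPM in Scr and 4.13, 5.1, 5.11 and 4.81 CPM in Scr+Cy, so it rose in Scr from a far lower level and was not called in ZIP. All 10 were called without ZIP replicate 4.

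**Figure D5:**
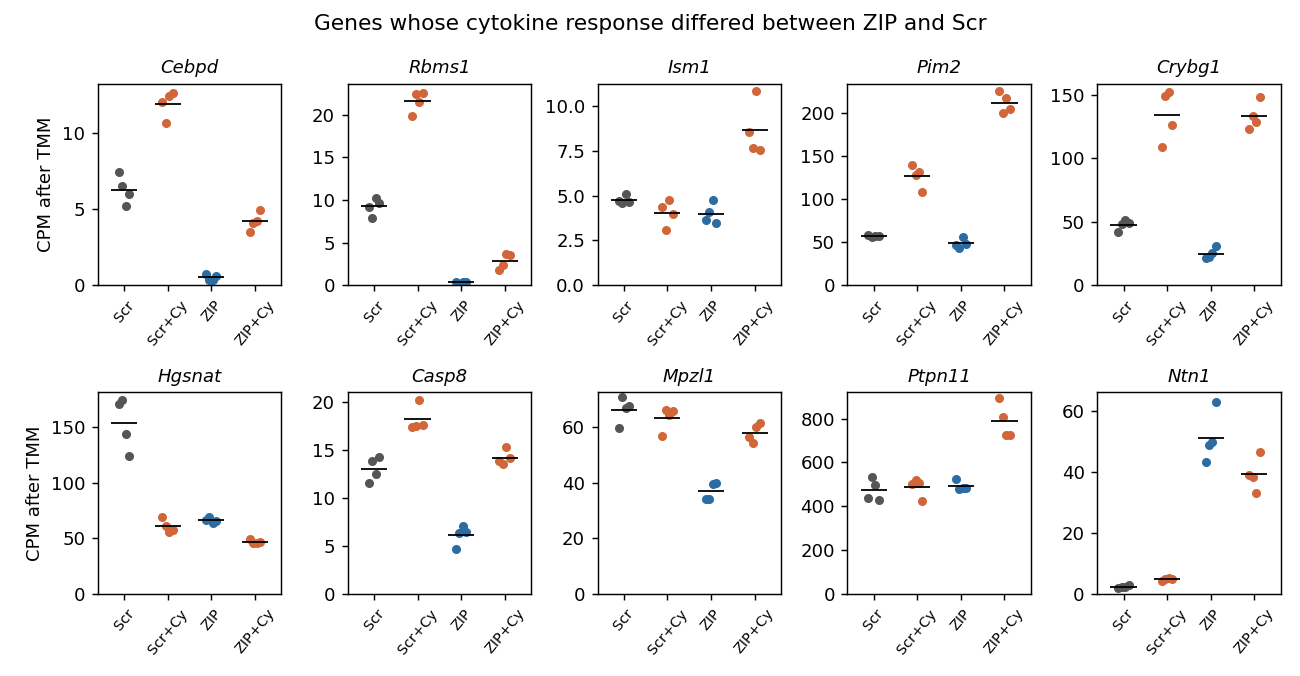
CPM after TMM scaling in each library of Scr, Scr+Cy, ZIP and ZIP+Cy for the 10 genes whose responses differed (points are libraries, lines are means of 4). Ptpn11, Ism1 and Mpzl1 were called higher in ZIP and not in Scr, while Cebpd and Rbms1 rose in both lines from a far lower untreated level in ZIP.

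Against OE cells the test of the difference called 1512 of 17696 genes (8.54%). Of the 1083 genes higher in ZIP, 221 had a larger rise in OE and 73 a larger rise in ZIP, and without ZIP replicate 4 these counts were 185 and 81. Of the 634 genes lower in ZIP, 33 had a more negative response in OE and 84 a more negative one in ZIP. All these genes were chosen by their change in ZIP, and the same ZIP values enter the difference. That choice alone tilts the counts toward larger responses in ZIP, so the 33 and 84 are no measure of which line fell more. For several strongly induced genes the call turned on ZIP replicate 4. Cxcl10 rose by 6.61 in ZIP and 10.67 in OE on the log2 scale, a difference of −4.05 ± 1.12 (SE), adjusted p = 0.0121, but without ZIP replicate 4 it was −2.01, adjusted p = 0.145. Likewise the difference for Nos2 was −5.04 ± 1.12 (SE), adjusted p = 0.00248, and without that library −2.86, adjusted p = 0.241, and for Gbp2 it was −4.45 ± 1.21 (SE), adjusted p = 0.011, and without that library −2.17, adjusted p = 0.151. Other differences held without it. Irf1 rose less in ZIP than in OE (difference −1.40 ± 0.13 (SE), adjusted p = 3.8e-07, and without ZIP replicate 4 −1.29, adjusted p = 4.19e-07). Irak2, a kinase-like partner of IRAK1, had log2 fold changes of 0.50 in ZIP, which was not called, and 2.26 in OE (difference −1.76 ± 0.25 (SE), adjusted p = 3.85e-05, and without ZIP replicate 4 −1.75, adjusted p = 7.37e-05). In contrast C4b, a complement component, rose by 6.40 in ZIP (8.11 without ZIP replicate 4) and 1.39 in OE, a difference of 5.02 ± 0.57 (SE), adjusted p = 3.74e-06 (6.73, adjusted p = 2.46e-07 without the library). Hspa5, which had a log2 fold change of −0.89 in OE, differed by 1.06 ± 0.15 (SE), adjusted p = 4.16e-05 (1.18, adjusted p = 6.23e-06 without the library). The vector backbone, the clone and the level of miR-146a-5p cannot be told apart as sources of these differences.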

How the data were processed

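RNA-seq libraries of untreated and cytokine-treated ZIP cells (4 each) were compared, with Scr and OE libraries entering the same fit of 24 libraries. The authors deposited estimated counts per gene, of which 30.3% are not whole numbers, made in Partek Flow from STAR alignments to mm10 with RefSeq transcripts, without genes of fewer than 10 reads in total. The submitters' processing notes name STAR 2.7.8a and Partek 11.0.24.0204, while the study's methods name other versions of both. All 24 columns matched a label, and the deposited normalized counts were not used. Counts were rounded, scaled by TMM and tested with edgeR 4.0.16 (R 4.3.3) by quasi-likelihood F tests of contrasts between 6 group means over all 17696 genes, with no further filter. Such a test was checked on simulated counts. SE is the log2 fold change divided by the square root of F. Depth ranged from 26657792 to 33369451 reads in the ZIP libraries, and a limit of 3 reads, which covers counting error only, was used for genes at 0. The study called genes at 1.5-fold and an unadjusted p value, and here the adjusted p value was used, with the study's rule as an alternative.

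Replicate numbers in the labels paired the samples. The deviations of ZIP and ZIP+Cy libraries with the same number from their group means had correlations of 0.355, 0.289, 0.261 and 0.397 over genes of at least 1 CPM, all over 0.1, and the other pairings reached at most 0.01. The fit with this number as a block is therefore given where it changed a call. Alternatives were DESeq2 1.42.0, its size factors in edgeR, edgeR's filterByExpr, only the groups compared, no fold limit and leaving out each library. Named genes were members of the gene lists, the 15 largest rises and falls among called genes of at least 5 CPM without overlap between libraries, the genes whose response differed from Scr, and up to 6 abundant genes whose call depended on ZIP replicate 4. Genes named because leaving out a library changed their list's count, or for the comparison with OE cells, were chosen after their values were seen. The libraries, lists and tests were chosen with earlier results of these data known. A few genes of the lists are not reported here. Sequences are from RefSeq (GRCm38.p6).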

Additional observations from a re-analysis of the deposited data

Results flagged for a closer look

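The highest or lowest library was tested for its distance from the other 3 of its group in 346 groups (each named gene in ZIP and in ZIP+Cy), and 52 passed Dixon's 95% limit, where chance alone flags about 1 in 20. In 34 of these the library was ZIP replicate 4 and its value was high. They were Irf7 at 7.59, Cxcl10 at 31.1, Cxcl9 at 12.5, Cxcl11 at 0.101, Nos2 at 3.49, Gbp2 at 37.6, Gbp3 at 31.5, Iigp1 at 37.6, Igtp at 49.9, Ifi47 at 6.55, Gbp6 at 11.3 CPM. Further such genes were Tgtp2 at 23.1, Isg15 at 3.29, Oasl2 at 13.6, Ifi204 at 0.269, Ifi211 at 0.235, Zbp1 at 9.91, B2m at 96.5, Tap1 at 24.8, Cd74 at 7.39, Psmb8 at 10.5, Psmb10 at 7.16 CPM. The others were Cd274 at 9.58, Icam1 at 2.49, C1ra at 2.62, Serping1 at 26.2, C4b at 2.32, Cfb at 7.26, Casp4 at 0.773, Mlkl at 11.2, Parp14 at 37.1, Neurl3 at 13.3, Serpina3g at 0.605 and Tgtp1 at 29.6 CPM. All of them are induced genes, so the values bear on their fold changes, which are given also without ZIP replicate 4 for many of them.

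In the other groups the library that stood apart varied. ZIP replicate 1 was high for Ccnd2 at 3363, Ptpn11 at 522, Cd59a at 0.732, Itgam at 1.17, Dcn at 11 and Ddah1 at 1.17 CPM. ZIP replicate 3 was high for Slc2a1 at 89 CPM. ZIP+Cy replicate 1 was high for Colgalt2 at 4.89, F13a1 at 7.3 and Cd93 at 3.0 CPM. ZIP+Cy replicate 1 was low for Gbp3 at 715 and Slc7a11 at 10.9 CPM. ZIP+Cy replicate 2 was low for Mcm5 at 257 CPM. ZIP+Cy replicate 3 was high for Col1a1 at 1.69 and Ptprc at 0.422 CPM. ZIP+Cy replicate 3 was low for Gfra1 at 3.91 and Itgam at 0 CPM. ZIP+Cy replicate 4 was high for Cd59a at 0.0322 CPM. 

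The cytokine response differed between ZIP and Scr cells for 10 genes, with differences of log2 responses, ZIP minus Scr, for Casp8 (0.73), Cebpd (2.07), Crybg1 (0.92), Hgsnat (0.83), Ism1 (1.35), Mpzl1 (0.72), Ntn1 (−1.38), Pim2 (0.98), Ptpn11 (0.65) and Rbms1 (1.74). Between ZIP and OE cells 1512 genes differed, and among those named above the differences, ZIP minus OE, were Irf1 (−1.40), Irak2 (−1.76), Cxcl10 (−4.05), Nos2 (−5.04), Gbp2 (−4.45), C4b (5.02) and Hspa5 (1.06). Those of Cxcl10, Nos2 and Gbp2 were not called without ZIP replicate 4. Line and clone cannot be told apart in either comparison.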

How the results depend on the processing

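The number of genes called higher after cytokines in ZIP cells lay between 993 and 1101 and of those lower between 509 and 670 when single libraries were left out, and the ranges were 7 to 12 for the difference between ZIP and Scr and 1204 to 1835 for that between ZIP and OE. Counts of higher and lower genes stayed within 1.5 times with DESeq2, its size factors in edgeR, filterByExpr, the replicate block and the groups compared alone. The difference between ZIP and Scr depended on the method, with 10 genes in the fit of group means, 31 with the replicate number as a block, 29 with DESeq2 and 583 at the study's unadjusted threshold. Without a fold limit, 2407 genes were higher, 2267 lower and 3647 differed between ZIP and OE. The block changed the calls of 6 of 173 named genes, namely Ldha, Slc2a1, Col1a2, Dcn, Ddah1 and Cd59a. No named gene that was called with all libraries turned direction in these settings. Among named genes not called with all libraries, 5 did when single libraries were left out. Log2 fold changes ranged from −4.56 to 1.20 for Dcn and from −3.76 to 0.97 for Itgam, both turned without ZIP replicate 1, and from −0.32 to 1.88 for Ptprc, which turned without ZIP+Cy replicate 3. Those of Socs3 (−0.12 to 0.089) and Glrx (−0.040 to 0.050) lay near 0 and turned without ZIP replicate 4, ZIP+Cy replicate 1 or ZIP+Cy replicate 3. DESeq2 gave no adjusted p for 9 named genes, which are not counted as lost. For the named genes, settings in which a call was lost or gained are given beside the gene, and the cause was not tested. Genes under about 1 CPM rest on few reads, so their fold changes are uncertain at this depth.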
